A study of Homo sapiens with 6 samples.

Results

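Coagulation, fibrinolysis and their inhibitors were examined as a list of 35 genes named for their roles in blood clotting, of which 34 were found among the 23524 genes of the expression table, and F9 was not analysed here. The list holds clotting factors, fibrinogen chains, protein C and protein Z components, protease inhibitors, plasminogen and its regulators, and AGT, the angiotensin precursor, a serpin that does not inhibit proteases. The samples were 6 RNA-Seq libraries of Hep G2, a human hepatocellular carcinoma cell line, 3 carrying an empty vector (control) and 3 with stable overexpression of EFTUD2, a GTPase of the spliceosome. The vectors were delivered by lentivirus, and the experiment was made to look for genes that respond to EFTUD2 in liver cancer cells. The sources used here do not say whether the 3 libraries of a group came from separate cultures, so p-values measure the spread between these libraries, which may be technical.

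Most clotting proteins of plasma are made by hepatocytes and secreted as inactive precursors. Tissue factor with factor VII starts the cascade, factor X with factor V turns prothrombin into thrombin, and thrombin cuts fibrinogen into fibrin. Antithrombin, heparin cofactor II, tissue factor pathway inhibitor and the protein C system restrain it, and plasmin, cut from plasminogen, dissolves the clot. Fibrinogen is also an acute-phase protein, whose chains are raised in the liver by interleukin-6.

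EFTUD2 itself, the check of the labels, had 41.1, 54.4 and 46.3 FPKM (fragments scaled by transcript length and library size) in the control libraries, against 106.6, 102.9 and 109.5 FPKM in those with EFTUD2. It was thus higher in each EFTUD2 library than in every control, by 1.16 ± 0.12 (SE) on the log2(FPKM + 1) scale, with an adjusted p of 0.13 (limma). Over 17222 genes whose mean reached 0.1 FPKM, limma called 0 genes (0%) at a Benjamini-Hochberg adjusted p under 0.05, EFTUD2 included. At an unadjusted p under 0.05, 757 genes (4.4%) were higher and 1361 (7.9%) were lower. After scaling by the median of ratios, which moved the median difference of all genes from -0.07 to 0.02, the share of higher genes among these was 61.4% in place of 35.7%.

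Among the 32 members that passed the filter on low values, 0 had an adjusted p under 0.05, and the count was 0 in every other fit but one. At an unadjusted p under 0.05, 8 members were higher with EFTUD2 (F7, SERPINC1, PROS1, AGT, VWF, KNG1, FGL1 and FGG), where 4.4% of all genes were, and 0 were lower, where 7.9% were. The fitted difference was above 0 for 24 of the 32 members and for 37.3% of all genes. The median difference was 0.22 for the members and -0.07 for all genes. All 3 EFTUD2 libraries lay above all 3 controls for 10 members (the same 8 with A2M and F5), against 7.92% of all genes, and all lay below for 0 members, against 19.4%. After scaling by the median of ratios, the member median was 0.33 and that of all genes 0.02. At an unadjusted p under 0.05, 9 members were then higher and 0 lower, against 6.98% and 4.39% of all genes. The share of all genes above 0 was not computed under that scaling. These libraries are bulk RNA, in which fewer cells of a type and less RNA per cell cannot be told apart. The exception was the fit that weights each library by its own spread (array weights), which called 1355 genes, 725 of them higher (4.21% of the genes tested), and among the higher ones F7, FGL1, PROS1, SERPINC1 and VWF. That fit gave EFTUD2 replicate 3 a weight of 0.121 and EFTUD2 replicate 1 a weight of 4.11.

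**Figure D1:**
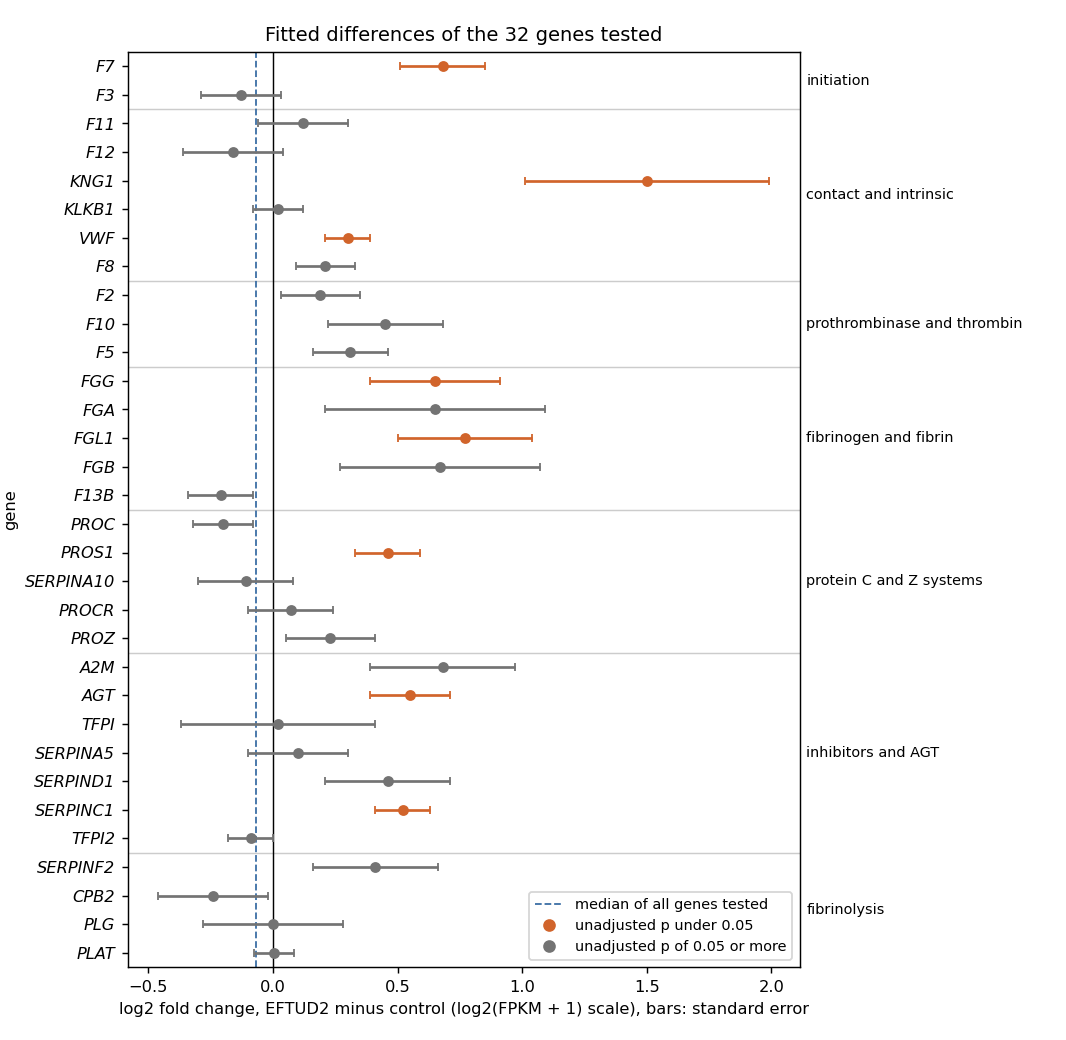
Fitted difference between EFTUD2 and control for each of the 32 tested members, in log2(FPKM + 1), with SE bars and the members grouped by role. Most points lie to the right of 0, with KNG1 farthest at 1.5, and the 8 lower members lie close to it.

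The libraries did not behave alike over this list. Of the 25 members whose mean reached 1 FPKM, control replicate 2 was the lowest control in 20 (80%), while it was the lowest for 32.2% of the 12555 genes at that level. EFTUD2 replicate 3 was the highest EFTUD2 library in 16 of the 25 (64%), and in 29.8% of those genes. It was the lowest EFTUD2 library in 7 of the 25 (28%), and in 62% of those genes. The summed level of the members was 3657, 2150 and 3398 FPKM in the controls and 4058, 3870 and 5148 FPKM in the EFTUD2 libraries, which did not overlap. Without control replicate 2, 4 members (AGT, F7, PROS1 and SERPINC1) kept an unadjusted p under 0.05, against 2.16% of all genes higher, and without EFTUD2 replicate 1, 5 did, against 3.07%. With control replicate 2 and EFTUD2 replicate 3 both left out, 7 members were higher and 2 (CPB2 and F12) were lower at that p, where 7.44% and 8.41% of all genes were. The member median was then 0.04 and that of all genes -0.04. With these 2 against 2 libraries the groups did not overlap for 13 higher and 8 lower members, and for 20.4% and 33.1% of all genes. AGT, F7, PROS1 and SERPINC1 had an unadjusted p under 0.05 in each of the 6 fits that left out 1 library. These fits share most of their libraries, and the share of all genes that passed in each was not computed. With both libraries left out, the 7 higher members were F7, F8, FGL1, KNG1, PROS1, SERPINC1 and VWF. AGT then had an unadjusted p of 0.0561 (limma).

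**Figure D2:**
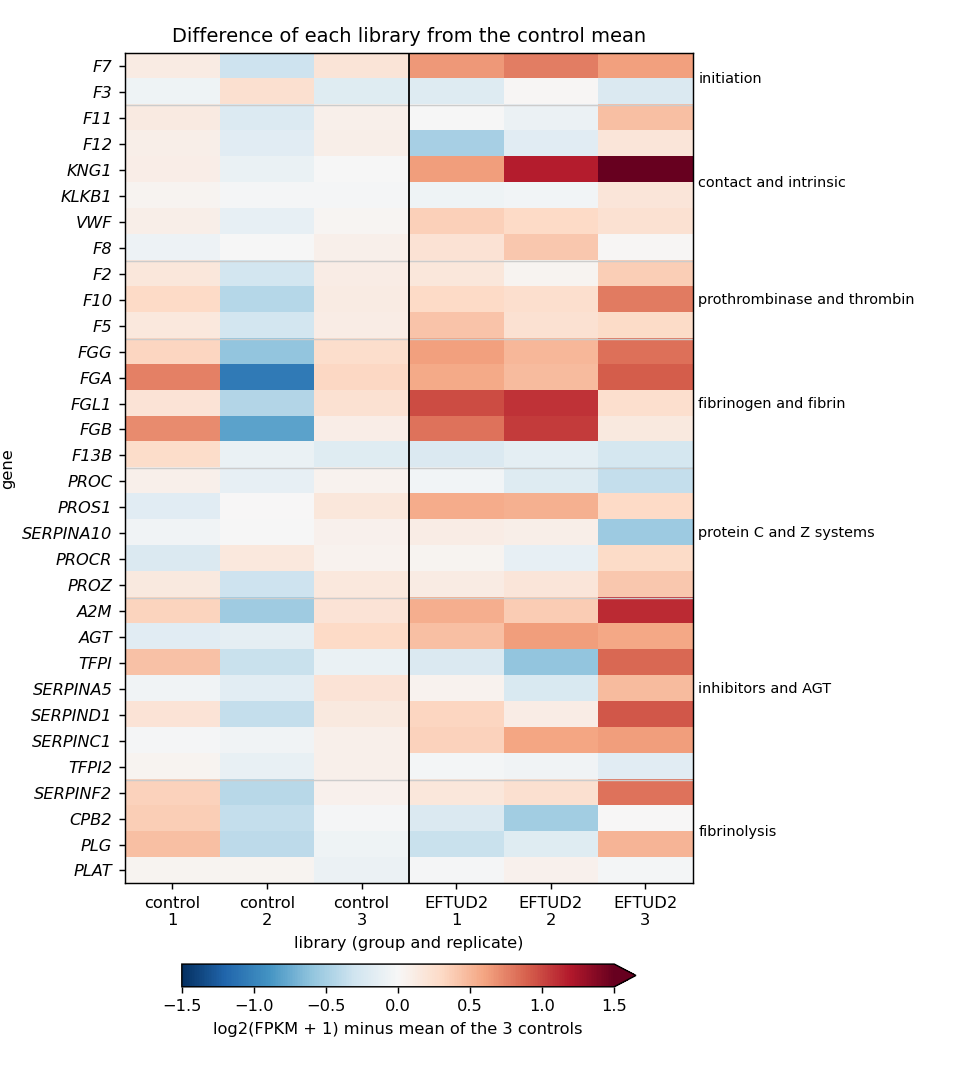
Difference of each library, in log2(FPKM + 1), from the mean of the 3 controls, for the 32 tested members in rows grouped by role. Control replicate 2 is blue (below the control mean) in most rows, most strongly for FGA and FGB, and EFTUD2 replicate 3 is the darkest red of its group for KNG1, A2M and SERPIND1, among others.

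The members covered a wide range of levels in the control cells. A2M, a broad protease inhibitor, was highest at 725.6 ± 213.9 FPKM (SD, n = 3), followed by FGG at 553.7 ± 173.6, FGA at 390.0 ± 210.4 and AGT at 330.6 ± 63.6 FPKM. The SDs of neighbours in that order overlapped from A2M to AGT. At the other end, KNG1, PLG, PLAT, KLKB1, F13B, VWF, TFPI2 and F8 had control means from 0.673 down to 0.167 FPKM. HRG, a plasma glycoprotein that binds plasminogen, and THBD, the endothelial thrombin receptor thrombomodulin, did not pass the filter, with at most 0.3 and 0.07 FPKM in any library.

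**Figure D3:**
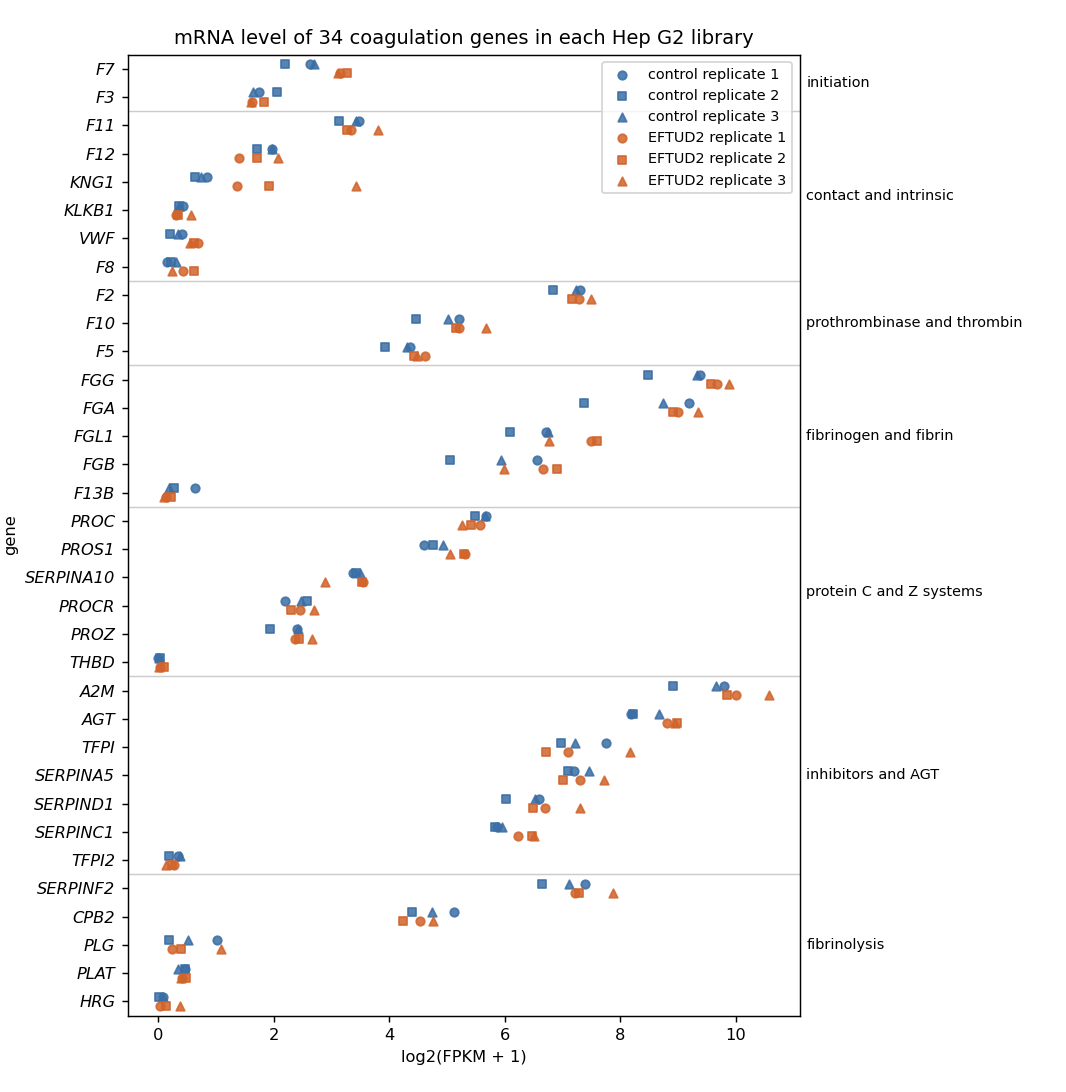
Level of each of the 34 members in each library, as log2(FPKM + 1), with controls in blue, EFTUD2 libraries in orange and a marker shape for each replicate. The members span from at most 0.07 FPKM (THBD) to 1521 FPKM (A2M), and the EFTUD2 points lie to the right of the controls for F7, SERPINC1, PROS1 and AGT.

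In the initiation of clotting, F7 (chromosome 13, 113105788 to 113120681, plus strand, GRCh38) was higher with EFTUD2. F7, the zymogen that tissue factor activates, measured 5.13, 3.55 and 5.46 FPKM in the controls and 7.88, 8.59 and 7.68 FPKM in the EFTUD2 libraries. All EFTUD2 values lay above the highest control, and the means were 4.71 ± 1.02 and 8.05 ± 0.478 FPKM (SD, n = 3), a ratio of 1.71. The difference was 0.68 ± 0.17 (SE) on the log2(FPKM + 1) scale, with an unadjusted p of 0.00488 and an adjusted p of 0.39 (limma). F3, tissue factor, had 2.36, 3.16 and 2.10 FPKM in the controls and 2.06, 2.56 and 2.02 FPKM with EFTUD2, which overlapped (-0.13 ± 0.16 on the same scale).

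Of prothrombinase and its substrate prothrombin, 0 of 3 genes had an unadjusted p under 0.05 (limma), and the groups overlapped for F10 and F2. F5, the cofactor of factor X, measured 19.5, 14.2 and 18.8 FPKM in the controls and 23.7, 20.4 and 21.4 FPKM with EFTUD2. Every EFTUD2 library was above every control, and the difference was 0.31 ± 0.15 (SE), with an unadjusted p of 0.0695 (limma). F10, the protease of the complex, ranged from 21.1 to 35.7 FPKM in the controls and from 34.5 to 50.2 FPKM with EFTUD2, and F2, prothrombin, from 113.3 to 155.7 and from 141.8 to 178.0 FPKM. Their differences were 0.45 ± 0.23 and 0.19 ± 0.16. Without control replicate 2 they were 0.23 and 0.05, with F5 at 0.18, without EFTUD2 replicate 3 they were 0.28 and 0.10, and with both left out 0.07 and -0.04.

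Of the contact and intrinsic factors, KNG1 and VWF were higher at an unadjusted p under 0.05, where 4.4% of all genes were. KNG1, kininogen, the precursor of bradykinin and the cofactor of contact activation, measured 0.79, 0.56 and 0.67 FPKM in the controls and 1.58, 2.79 and 9.76 FPKM in the EFTUD2 libraries. The 3 EFTUD2 libraries lay above the controls but differed widely among themselves, and EFTUD2 replicate 3 alone was well above the other two. The difference of 1.5 ± 0.49 (SE) had an adjusted p of 0.40 (limma) and was the largest of the 32 members with all 6 libraries. Without EFTUD2 replicate 3 it was 0.90, under the 1.03 of FGL1 and the 0.93 of FGB, and with array weights it was 0.80, under their 0.89 and 0.88. VWF, the platelet-adhesion protein that carries factor VIII and is made chiefly in endothelium, measured 0.33, 0.15 and 0.27 FPKM and 0.60, 0.54 and 0.46 FPKM with EFTUD2, a difference of 0.30 ± 0.09 at a low level. The endothelial markers CDH5 and PECAM1 measured 0.06 to 0.08 and 0.85 to 1.19 FPKM in the controls and 0.19 to 0.28 and 0.54 to 0.81 FPKM with EFTUD2, and the part of such cells in the VWF values was not tested. F11, a protease that activates factor IX, ranged from 7.78 to 10.2 FPKM and from 8.59 to 12.9 FPKM (0.12 ± 0.18). F12, the protease that starts contact activation, ranged from 2.27 to 2.93 and from 1.62 to 3.19 FPKM (-0.16 ± 0.20), and KLKB1, prekallikrein, from 0.28 to 0.34 and from 0.24 to 0.47 FPKM (0.02 ± 0.10). F8, the cofactor of factor IX, measured 0.11, 0.16 and 0.23 FPKM in the controls and 0.35, 0.54 and 0.18 FPKM with EFTUD2, also with overlap.

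The chains of fibrinogen are encoded by 3 genes that lie side by side on chromosome 4, FGB then FGA then FGG, with gaps of 12039 and 13367 bases, and their summed level was 1340, 550.2 and 1126 FPKM in the controls and 1430, 1352 and 1649 FPKM with EFTUD2. FGG, the gamma chain, measured 666.6, 353.9 and 640.7 FPKM in the controls and 818.7, 755.5 and 941.7 FPKM with EFTUD2. The groups did not overlap, and the difference was 0.65 ± 0.26 (SE), with an unadjusted p of 0.0431 and an adjusted p of 0.40 (limma). FGA, the alpha chain, measured 580.8, 164.4 and 424.9 FPKM and then 511.4, 478.5 and 645.1 FPKM, with overlap, and FGB, the beta chain, 92.5, 31.9 and 60.3 FPKM and then 99.7, 118.1 and 62.4 FPKM. Their differences of 0.65 ± 0.44 and 0.67 ± 0.40 were of the size of that of FGG with larger errors. Control replicate 2 was the lowest library for all 3 chains. Without it the differences were 0.35 for FGG (unadjusted p of 0.0798, limma), 0.12 for FGA and 0.27 for FGB, and with EFTUD2 replicate 3 left out too they were 0.27, -0.0062 and 0.53.

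The ratio of the chains also differed between libraries. FGA to FGB was 6.28, 5.15 and 7.05 in the controls and 5.13, 4.05 and 10.4 with EFTUD2, and the highest and the lowest of the 6 were both EFTUD2 libraries. FGL1, a hepatocyte-secreted protein of the fibrinogen family and the ligand of LAG3, measured 104.2, 66.7 and 106.6 FPKM and then 179.9, 193.3 and 108.2 FPKM, a difference of 0.77 ± 0.27 with EFTUD2 replicate 3 just above the highest control. F13B, the carrier subunit of the fibrin crosslinking enzyme, was at 0.55 FPKM or less in every library (-0.21 ± 0.13).

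The promoter sequences are shown for the fibrinogen chains because FGA, FGB and FGG are a co-expressed cluster whose interleukin-6 response has been mapped to elements near the start. They are the 250 bases before the RefSeq gene start (GRCh38.p14), 5′ to 3′ on the gene's strand, with capitals marking CTGGGAA (the interleukin-6 response element core) in FGB and FGG, and TTCNNNGAA (a STAT-type site) and GTTAATNAT (HNF1) in FGA, searched on both strands. Only full matches were marked, so CTGGGA followed by T in the FGA sequence stands in lower case. Whether that variant acts was not tested. FGA lies at chr4:154590743-154590992 on the minus strand, FGB at chr4:154562730-154562979 on the plus strand, and FGG at chr4:154612657-154612906 on the minus strand.
FGA: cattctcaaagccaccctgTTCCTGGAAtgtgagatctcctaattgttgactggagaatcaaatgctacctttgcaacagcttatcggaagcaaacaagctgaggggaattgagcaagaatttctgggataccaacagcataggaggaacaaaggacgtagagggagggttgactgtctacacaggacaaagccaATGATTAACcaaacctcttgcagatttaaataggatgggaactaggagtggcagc
FGB: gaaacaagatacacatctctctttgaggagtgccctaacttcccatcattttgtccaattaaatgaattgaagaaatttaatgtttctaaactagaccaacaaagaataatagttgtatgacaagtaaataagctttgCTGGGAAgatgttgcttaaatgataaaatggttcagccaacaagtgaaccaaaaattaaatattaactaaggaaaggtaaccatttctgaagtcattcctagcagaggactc
FGG: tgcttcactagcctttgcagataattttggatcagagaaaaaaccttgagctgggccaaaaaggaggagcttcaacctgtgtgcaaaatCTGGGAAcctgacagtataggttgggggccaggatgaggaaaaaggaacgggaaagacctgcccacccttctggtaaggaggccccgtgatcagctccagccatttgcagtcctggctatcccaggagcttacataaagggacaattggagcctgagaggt

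The match in FGB lay from position -112 to -106 and that in FGG from -161 to -155, counted from the start. In FGA the STAT-type match lay from -231 to -223 and the HNF1 match, on the other strand, from -55 to -47. CTGGGAA was in 5 of 27 member promoters (AGT, F10, FGB, FGG and PLG), and in 9.15% of all 35116 promoters. TTCNNNGAA was in 7 of 27 (AGT, CPB2, F10, FGA, KLKB1, PROS1 and SERPINA5), and in 6.57% of all. GTTAATNAT was in 2 of 27 (F13B and FGA), CAAAGTCCA (HNF4) in PROZ, TTGCGCAA (C/EBP) in 0, and TATAAA in 5 (AGT, F13B, F3, HRG and PROCR), against 0.723%, 0.325%, 0.131% and 10.7% of all promoters. These matches are letters in a window, not binding measurements. Of the other members, VWF, A2M, SERPINC1, SERPINF2, THBD, FGL1 and PLAT had no entry in the table.

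Of the anticoagulant protein C and protein Z systems, PROS1 was higher with EFTUD2. PROS1, protein S, the cofactor of protein C, measured 23.1, 26.03 and 29.3 FPKM in the controls and 38.6, 38.2 and 32.1 FPKM with EFTUD2. The groups did not overlap, and the difference was 0.46 ± 0.13 (SE), with an unadjusted p of 0.00995 (limma). PROC, protein C itself, measured 50.1, 43.6 and 49.1 FPKM and then 46.2, 41.4 and 37.0 FPKM, overlapping, with a difference of -0.20 ± 0.12. PROCR, the endothelial protein C receptor, PROZ, protein Z, and SERPINA10, the inhibitor that protein Z assists, differed by 0.07 ± 0.17, 0.23 ± 0.18 and -0.11 ± 0.19, all with overlap. SERPINA10 ranged from 9.36 to 10.2 FPKM in the control libraries and measured 10.6, 10.5 and 6.38 FPKM with EFTUD2, where replicate 3 alone was low.

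The 6 vitamin K-dependent members (F2, F7, F10, PROC, PROS1 and PROZ) were compared as well, since their proteins share a carboxylation step. Of these, 5 had a fitted difference above 0, with a median of 0.34, and 2 (F7 and PROS1) were higher at an unadjusted p under 0.05. Over all genes 37.3% were above 0, the median was -0.07 and 4.4% were higher at that p. With control replicate 2 and EFTUD2 replicate 3 both left out, F7 and PROS1 differed by 0.55 and 0.54. F2, F10, PROC and PROZ then differed by -0.04, 0.07, -0.18 and -0.0085. GGCX, the carboxylase, measured 23.5, 23.9 and 29.4 FPKM in the controls and 27.3, 27.6 and 28.2 FPKM with EFTUD2 (0.12 ± 0.12), and VKORC1, the reductase that recycles vitamin K, differed by 0.15 ± 0.15. VKORC1L1, its paralog, differed by -0.20 ± 0.13.

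Among the protease inhibitors, SERPINC1 (chromosome 1, 173903804 to 173917378, minus strand, GRCh38) had the smallest p of the 32 members with all 6 libraries, unscaled and unweighted. PROS1 and F7 had smaller ones under the median of ratios, and PROS1, FGL1, VWF and F7 with array weights. So did AGT and F7 without control replicate 3, and KNG1, FGL1 and PROS1 without EFTUD2 replicate 3. With control replicate 2 and EFTUD2 replicate 3 both left out, FGL1, F7, PROS1 and KNG1 had smaller ones. SERPINC1, antithrombin, the main inhibitor of thrombin and factor X, measured 57.1, 55.5 and 60.9 FPKM in the controls and 73.8, 87.9 and 89.8 FPKM with EFTUD2. The groups were well apart, with means of 57.8 ± 2.75 and 83.8 ± 8.74 FPKM (SD, n = 3) and a ratio of 1.45. The difference was 0.52 ± 0.11 (SE), with an unadjusted p of 0.00255 and an adjusted p of 0.33 (limma). AGT measured 289.7, 298.3 and 403.9 FPKM and then 447.0, 504.5 and 490.9 FPKM, without overlap, a difference of 0.55 ± 0.16.

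A2M measured 886.1, 482.8 and 808.0 FPKM in the controls and 1021, 916.5 and 1521 FPKM with EFTUD2, without overlap, a difference of 0.68 ± 0.29 with an unadjusted p of 0.0544 (limma). SERPIND1, heparin cofactor II, ranged from 63.7 to 94.8 and from 88.2 to 157.5 FPKM (0.46 ± 0.25), with overlap. Without control replicate 2, A2M differed by 0.41 and SERPIND1 by 0.28, without EFTUD2 replicate 3 SERPIND1 differed by 0.22, and with both left out they differed by 0.19 and 0.04. SERPINA5, the protein C inhibitor, ranged from 135.2 to 173.6 FPKM in the controls and from 128.2 to 210.1 FPKM with EFTUD2, with overlap (0.10 ± 0.20), as did TFPI2, a Kunitz inhibitor measured at 0.29 FPKM or less in every library (-0.09 ± 0.09). TFPI, the inhibitor of tissue factor with factor VII, measured 213.1, 124.8 and 146.5 FPKM and then 134.8, 104.4 and 287.4 FPKM. Its EFTUD2 libraries held the lowest and the highest of the 6 values, its difference was 0.02 ± 0.39, and it was -0.57 with control replicate 2 and EFTUD2 replicate 3 left out.

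AGT is also shown by its promoter, because it held matches to CTGGGAA, TTCNNNGAA and TATAAA together, marked in capitals, at -60 to -54, -170 to -162 and -30 to -25. The sequence is the 250 bases before the RefSeq start at chr1:230714123-230714372, minus strand, GRCh38.p14.
AGT: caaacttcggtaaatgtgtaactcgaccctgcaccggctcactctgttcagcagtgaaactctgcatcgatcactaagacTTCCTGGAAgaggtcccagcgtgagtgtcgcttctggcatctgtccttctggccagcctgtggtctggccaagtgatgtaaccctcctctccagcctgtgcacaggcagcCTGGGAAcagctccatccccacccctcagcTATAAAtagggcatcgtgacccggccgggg

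**Figure D4:**
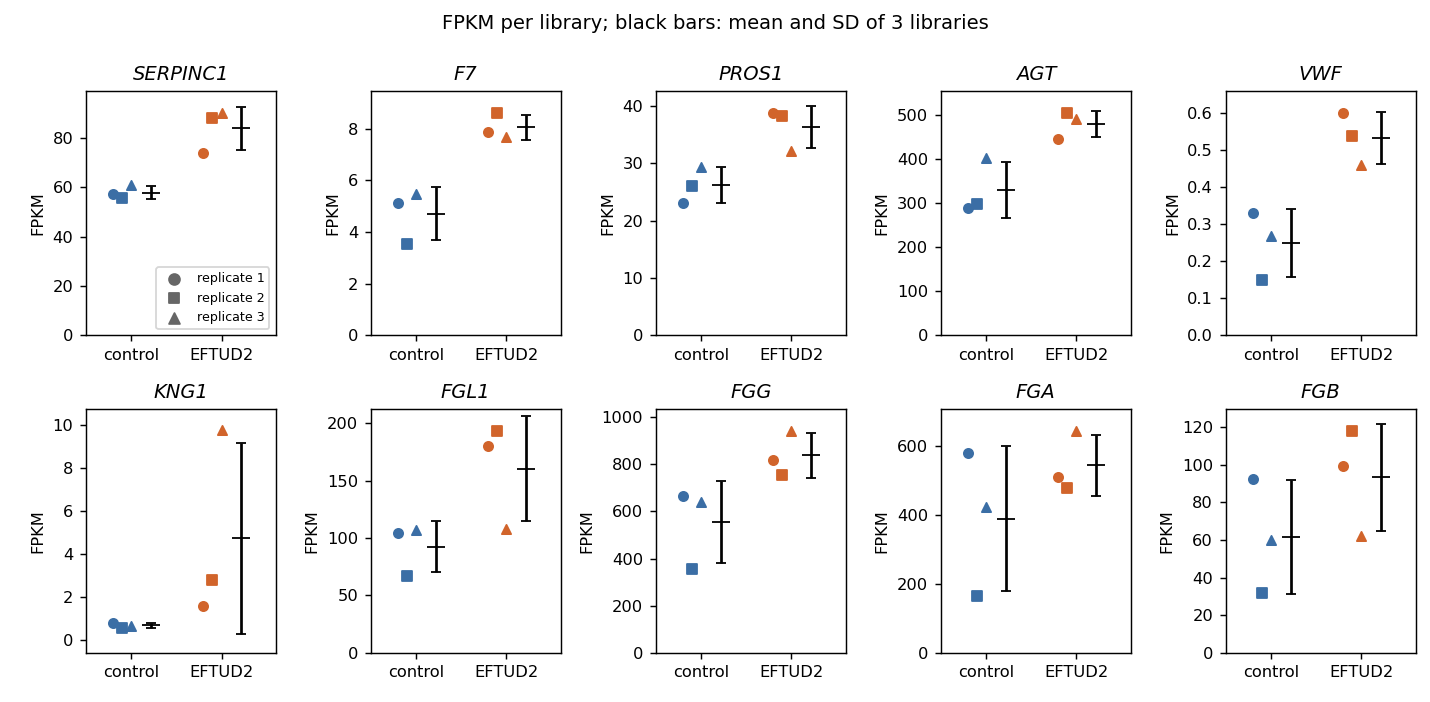
FPKM in each control and EFTUD2 library for single members, with the mean and SD of each group. SERPINC1 and F7 show groups that do not overlap, and KNG1 shows 1 EFTUD2 library, replicate 3, far above the other two.

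In fibrinolysis, 0 of 4 tested members had an unadjusted p under 0.05 (limma), beside 4.4% higher and 7.9% lower of all genes, and 4 genes are too few to read a difference from those shares. PLG, plasminogen, measured 1.02, 0.13 and 0.42 FPKM in the controls and 0.17, 0.31 and 1.11 FPKM with EFTUD2, a wide spread in both groups. PLAT, tissue plasminogen activator, was between 0.26 and 0.40 FPKM in all 6 libraries (0.0043 ± 0.08). SERPINF2, the plasmin inhibitor, ranged from 98.5 to 167.3 and from 147.8 to 232.5 FPKM (0.41 ± 0.25, and 0.20 without either control replicate 2 or EFTUD2 replicate 3), and CPB2, which makes fibrin resistant to plasmin, from 20.0 to 33.8 and from 17.8 to 26.1 FPKM (-0.24 ± 0.22), both with overlap.

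The other genes of the pathway, a list of 31 that holds no member, had 19 higher and 8 lower of 27 tested, with 6 and 3 at an unadjusted p under 0.05 and 0 at an adjusted p under 0.05 (limma). Of all genes, 37.3% were above 0, and 4.4% were higher and 7.9% lower at that unadjusted p. C4BPA, the alpha chain of a complement regulator, measured 7.98, 7.02 and 9.39 FPKM in the controls and 20.3, 21.4 and 22.5 FPKM with EFTUD2. C4BPB, its beta chain, which binds protein S, measured 35.3, 40.1 and 40.6 FPKM and then 54.9, 63.3 and 54.3 FPKM. SERPING1, the inhibitor of contact proteases and complement C1, SERPINA1, alpha-1-antitrypsin, GAS6, a protein S relative, and APOH, beta-2-glycoprotein I, were higher, each without overlap. Their differences were 1.22, 0.66, 1.0 and 0.75 on the log2(FPKM + 1) scale, which shrinks differences at low levels. GAS6 was low, at 0.38, 0.32 and 0.27 FPKM in the controls and 1.15, 1.47 and 2.48 FPKM with EFTUD2. Its ratio of means was 5.26, against 2.58 for SERPING1.

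The 3 lower genes at that p were PLAU, F2R and F2RL1. PLAU, urokinase, measured 6.05, 7.41 and 7.82 FPKM in the controls and 4.41, 4.28 and 2.97 FPKM with EFTUD2 (-0.74 ± 0.17), and the thrombin receptor F2R 10.4, 13.7 and 12.6 FPKM and then 9.35, 8.41 and 6.95 FPKM (-0.52 ± 0.16). F2RL1, the protease-activated receptor 2, was at 33.98 to 52.6 and then at 12.7 to 23.7 FPKM (-1.12 ± 0.26). None of these 9 reached an adjusted p under 0.05 (limma).

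Levels of other cell markers were read beside the list. Hepatocyte markers were expressed in all libraries, with 10 of 10 tested, 6 higher and 4 lower, and a summed level of 5814 to 10435 FPKM in the controls and 7300 to 12878 FPKM with EFTUD2. ALB, albumin, was lowest of the controls in replicate 2, at 1773 FPKM, and highest of the EFTUD2 libraries in replicate 3, at 4732 FPKM, the pattern of 20 and of 16 of the 25 members above. Endothelial markers summed to 1.11 to 1.41 FPKM and to 0.86 to 1.20 FPKM, with 3 of 6 tested, and macrophage markers to at most 0.06 and 0.22 FPKM, with TYROBP at 0. Platelet markers summed to 0.08 to 0.54 and to 0.22 to 1.13 FPKM, with PF4 and PPBP at 0. Fibroblast markers summed to 0.50 to 1.58 and to 2.32 to 4.26 FPKM, with COL1A2 at 0. Basal epithelial markers summed to 1.12 to 1.80 and to 9.39 to 136.0 FPKM, with KRT5 at 0. Nearly all of that sum was KRT17, at 66.9, 135.1 and 9.29 FPKM with EFTUD2. KRT14 was at 0.83 FPKM or less and TP63 at 0.01 FPKM or less in every library. VIM, vimentin, measured 0.06, 0.08 and 0.12 FPKM in the controls and 23.2, 59.6 and 2.87 FPKM with EFTUD2, with LDHB and KRT17 in the same order of libraries. That order, replicate 2 above 1 above 3, held for 7 of 32 members (F13B, F3, F7, F8, FGB, FGL1 and PLAT) and for 37.5% of all genes. The part of these markers in the members' differences was not tested.

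Members that neighbour each other on the genome are given side by side. On chromosome 13, F7, F10 and PROZ lie within gaps of 2132 and 9124 bases and differed by 0.68, 0.45 and 0.23. With control replicate 2 and EFTUD2 replicate 3 both left out, they differed by 0.55, 0.07 and -0.0085. On chromosome 4, KLKB1 and F11 lie 7473 bases apart and differed by 0.02 and 0.12, and by -0.07 and -0.15 with both libraries left out. On chromosome 3, HRG and KNG1 lie 39035 bases apart, and HRG did not pass the filter while KNG1 differed by 1.5. Of the 34 members, 20 overlap another annotated gene and 16 overlap one on the other strand, taken over whole gene spans rather than exons. As the strand of counting is not given in the sources used here, reads from exons shared across strands cannot be told apart. How many members share exons in this way was not examined.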

How the data were processed

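RNA-Seq was analysed for 6 Hep G2 libraries, 3 control and 3 EFTUD2. The study isolated RNA with TRIzol, enriched poly-A RNA and used a BGISEQ-500 sequencer. The authors deposited FPKM per gene and library, rounded to 2 decimals. The submitters' processing notes name HISAT2, Bowtie2, RSEM, DESeq2 and hg38, with no role or version. Depth is unknown, so no counting interval is given, and FPKM sums ran from 404342 to 434542. The 34 members and all lists were chosen with earlier results of these data known. The rule named all members by role, and those of the pathway list with an unadjusted p under 0.05 whose groups do not overlap.

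On log2(FPKM + 1), 17222 genes whose mean reached 0.1 FPKM were compared with limma 3.58.1 (lmFit, eBayes with trend) in R 4.3.3, Benjamini-Hochberg adjusted. Fits leaving out a library kept these genes. The exact two-sided permutation test cannot go below a p of 0.1. The code was tested on simulated data. Positions come from GENCODE (GRCh38) and promoters from RefSeq (GRCh38.p14), with 27 of 34 members matched. Alternatives were another pseudocount, other filters and scalings, robust and weighted fits, a replicate block and fits without single libraries.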

Additional observations from a re-analysis of the deposited data

How the results depend on the processing

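Of 473 values of single members under 15 other settings, 433 kept their direction and side of the threshold, 5 passed the threshold (with array weights) and 35 reversed, and 18 of 32 members never reversed. Other filters, the robust fit and the replicate block left each fitted difference unchanged, so no member could reverse there. The threshold is an adjusted p under 0.05, which 0 members passed with all 6 libraries unweighted. A smaller difference of the same direction therefore counted as kept. Genes with an adjusted p under 0.05 numbered 0, but 1355 with array weights, 0 to 131 when 1 library was left out (131 without EFTUD2 replicate 3, 0 of them members) and 1 with control replicate 2 and EFTUD2 replicate 3 both left out, a setting chosen after seeing the data. Members higher at an unadjusted p under 0.05 ranged from 4 to 10 over the fits without 1 library, where 2.16% to 7.82% of all genes were. With the replicate block there were 10 in place of 8 (4.49% of all genes), with 0 genes called, and with array weights 12 (10.9% of all genes). The deviations of same-numbered libraries correlated at -0.299, 0.353 and -0.0936 for numbers 1, 2 and 3, and not every library correlated best with its own number. Members lower at an unadjusted p under 0.05 numbered 1 with array weights (F12), where 16.5% of all genes were. They numbered 2 with both libraries left out, where 8.41% of all genes were. The member median was 0.41 with a filter at a mean of 1 FPKM and 0.04 with both left out. Members whose groups did not overlap and were higher numbered 10, where 7.92% of all genes were. They numbered 7 under a common sum and 12 under the median of ratios, for which that share was not computed. Without 1 library they numbered 10 to 14, where 9.74% to 14.7% of all genes were. Members that were lower without overlap ranged from 0 to 2 without 1 library (2 without control replicate 2 or EFTUD2 replicate 2). Of all genes 23.4% to 26.6% were lower in those fits. With both left out 8 members were lower, where 33.1% of all genes were. The causes were not tested.

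The direction reversed for PLG (0.06) and SERPINA10 (0.01) under the median of ratios, and for PLAT (-0.0069) and TFPI (-0.02) under a common sum. With array weights it reversed for KLKB1 (-0.04), TFPI (-0.18), SERPINA5 (-0.11), F11 (-0.03), PROCR (-0.04) and SERPINA10 (0.06). With both libraries left out it reversed for PROZ (-0.0085), KLKB1 (-0.07), SERPINF2 (-0.00099), TFPI (-0.57), SERPINA5 (-0.17), FGA (-0.0062), F3 (0.03), F11 (-0.15), F2 (-0.04) and SERPINA10 (0.10). Without 1 library in turn, the values ran from -0.26 to 0.22 for PLG, -0.04 to 0.16 for PROCR, -0.40 to 0.32 for TFPI, -0.04 to 0.03 for PLAT, -0.33 to 0.0067 for F12, -0.06 to 0.07 for KLKB1, -0.09 to 0.26 for SERPINA5, -0.04 to 0.23 for F11 and -0.22 to 0.10 for SERPINA10.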
